A study of Mus musculus with 6 samples.

Results

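Leukocyte marker genes were measured on 6 Affymetrix arrays of primary mouse hepatocytes, 3 from Alb/AEG-1 transgenic mice and 3 from wild-type mice. The set was a fixed list of 43 genes that mark Kupffer cells and other macrophages (20 genes), leukocytes or myeloid cells in general (6), neutrophils (5), T and NK cells (7) and B cells (5). A gene was taken as measured where at least 1 probe set carried its symbol alone, and its brightest probe set, judged by the average of all 6 arrays, represented it. This gave 41 of the 12393 genes on the array. Timd4, a phosphatidylserine receptor of resident macrophages, and Ly6g, a neutrophil surface antigen, had no such probe set and were not analysed here.

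The transgenic mice carry extra AEG-1, the product of Mtdh (astrocyte elevated gene 1), in hepatocytes, and the Alb prefix of the line's name stands for albumin, whose promoter is active in hepatocytes. Both genotypes were on a mixed B6/CBA strain and received no treatment. The cells were plated on collagen-coated plates and harvested after 24 h. The labels state neither age nor sex, nor whether biological replicates came from different mice, so the p-values describe the spread among these 6 samples, which may be technical. AEG-1 overexpression is by design a hepatocyte change, and the arrays do not show whether signal of a leukocyte marker came from leukocytes left in the preparation or from hepatocytes.

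Kupffer cells are the resident macrophages of the liver sinusoids. They clear particles, bacteria and aged red cells from portal blood through scavenger, complement and Fc receptors, and they depend on signalling through CSF1R for survival. The transcription factor PU.1, encoded by Spi1, is needed for the macrophage and B cell lineages and acts through purine-rich sites called PU boxes. A hepatocyte preparation can carry over Kupffer cells and blood leukocytes in small numbers. In such bulk RNA, fewer cells of a type and less RNA per cell cannot be told apart.

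The values are log2 RMA signals, and a difference is always transgenic minus wild type in log2 units. The targeted gene Mtdh stood at 10.72, 10.40 and 10.81 on the transgenic arrays, against 8.75, 8.78 and 8.64 on the wild-type arrays, by 1 of its 6 probe sets. Its other 5 probe sets did not pass by limma over every probe set, with differences from -0.27 to 0.24. Array medians lay between 5.61 and 5.64, and correlations across genes ran from 0.9976 to 0.9982 within a genotype and from 0.9933 to 0.9940 between genotypes. Between the 3′ and 5′ control probe sets of Gapdh the signal differed by 0.10 to 0.11 in transgenic and 0.01 to 0.13 in wild-type arrays (two-sided exact permutation p = 0.6, where 3 against 3 allows no p below 0.1). All 10 measured hepatocyte identity genes, among them Alb and Apoa1, lay above the array median on every array. Of these 0 passed the test by limma, where 15.9% of all genes did, and 0 had an unadjusted p under 0.05. Their mean log2 level ran from 13.36 to 13.38 on the transgenic arrays and from 13.35 to 13.37 on the wild-type arrays.

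Most leukocyte markers gave little signal. Of the 41 measured members, 24 lay under the array median on all 6 arrays and 15 lay above it on all 6. Signal under the median is nearer to background, where RMA compresses differences, so a small difference there is less certain. All 6 general leukocyte genes, all 4 measured neutrophil genes, 5 of 7 T and NK genes and 3 of 5 B cell genes were under the median throughout. Among the macrophage genes 6 of 19 were, which left 11 above it on every array. Over all genes, 40.5% were under the median on every array.

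**Figure D1:**
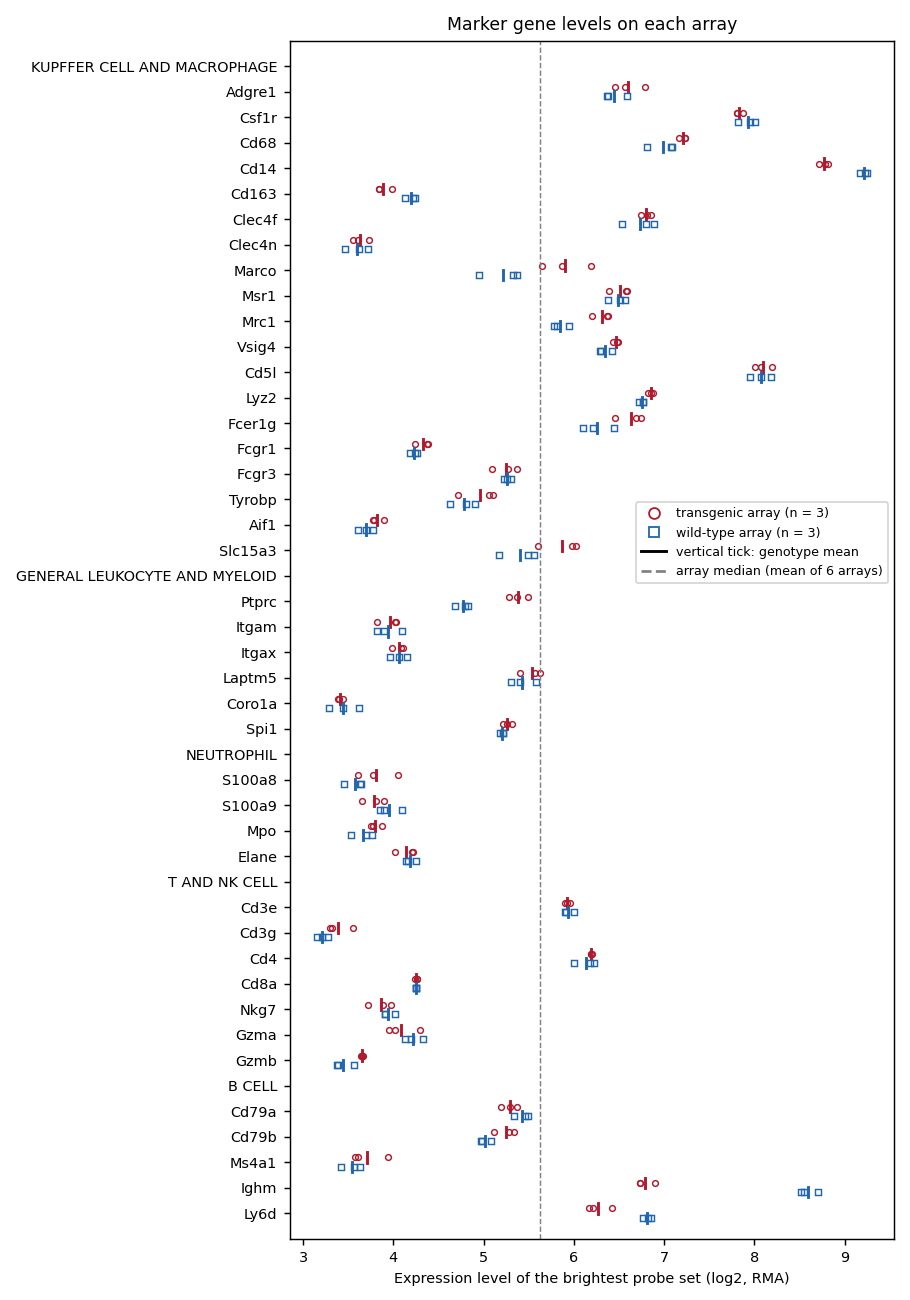
Log2 level (x axis) of the 41 measured marker genes (rows, grouped by cell class) on each transgenic array (circles) and each wild-type array (squares), with ticks at the genotype means and the array median of 5.63 as a dashed line. The 4 neutrophil and 6 general leukocyte genes lie to the left of the line, and the circles and squares of most genes overlap.

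Between the genotypes 7 members changed, by limma with Benjamini-Hochberg adjustment over all 12393 genes at a threshold of 0.05. The scavenger receptor genes Marco and Mrc1 and the leukocyte phosphatase gene Ptprc were higher in transgenic cells, by 0.69, 0.46 and 0.61. The endotoxin co-receptor gene Cd14, the haemoglobin scavenger receptor gene Cd163, the IgM heavy chain gene Ighm and the Ly6 family gene Ly6d were lower, with differences of -0.45, -0.31, -1.80 and -0.54. Thus 3 of 41 members rose, where 6.83% of all genes did, and 4 fell, where 9.05% of all genes did. With 17.1% of members changed against 15.9% of all genes, the list as a whole changed about as often as the rest of the array. The transgenic and wild-type arrays did not overlap for 15 members, 11 with the transgenic arrays above and 4 with them below, where 34.5% of all genes did not overlap (16.9% above and 17.6% below). At an unadjusted p under 0.05 there were 12 members, where 28.9% of all genes were. The median difference over the members was 0.06, against 0.01 over all genes.

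Calls were also counted by signal. Of the 15 members above the median on every array 4 changed (26.7%), where 23.5% of all such genes did. Of the 24 members under it 2 changed (8.33%), where 4.88% of all such genes did. Dim genes on these arrays also leaned upward, with 61.9% of the genes under the median higher in transgenic cells and a median difference of 0.04.

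**Figure D2:**
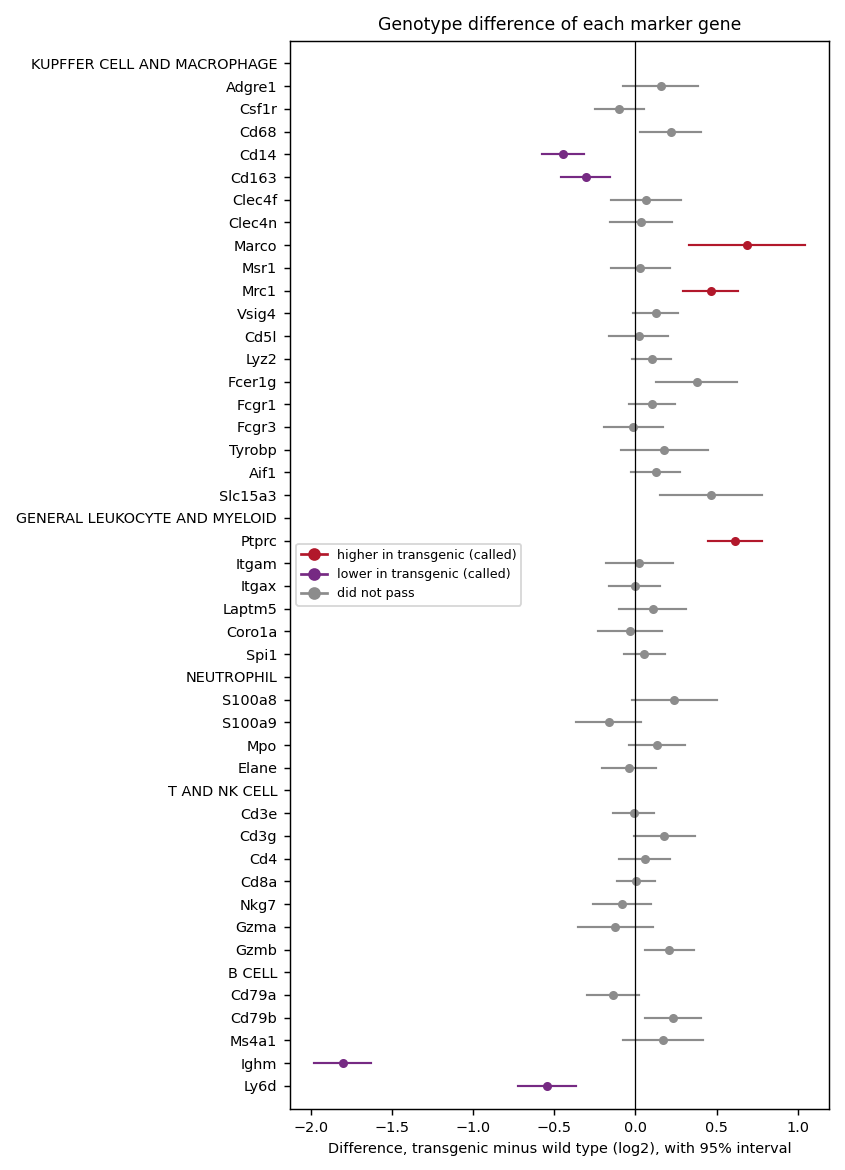
Difference between transgenic and wild-type cells (x axis, log2) of each measured marker gene (rows, grouped by cell class), with its 95% interval from limma, coloured by the call at an adjusted p of 0.05. Ighm lies apart at -1.80, Marco, Mrc1 and Ptprc lie to the right of 0, and the intervals of most other genes include 0.

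Of 5 measured members grouped here as resident Kupffer cell genes, 0 passed by limma, where 15.9% of all genes did. None had an unadjusted p under 0.05. The grouping was made for this description, and Marco and Cd163 were counted with the scavenger receptors instead. The regulator genes Id3 and Spic, described below, also lie outside this group and were called higher. Clec4f, a C-type lectin found on rodent Kupffer cells, was at 6.74, 6.81 and 6.86 in transgenic cells, against 6.79, 6.54 and 6.89 in wild-type cells. The arrays overlapped, and the difference of 0.06 had a 95% interval from -0.15 to 0.28. Cd5l, a secreted macrophage survival factor, was at 8.00, 8.20 and 8.08 in transgenic cells, against 8.19, 7.96 and 8.07 in wild-type cells, with an interval of the difference from -0.16 to 0.20. Csf1r, the receptor for CSF1 and interleukin 34, was at 7.81, 7.81 and 7.87 in transgenic cells, against 8.01, 7.82 and 7.96 in wild-type cells, with an interval from -0.25 to 0.05. All 3 probe sets of Csf1r missed the threshold, with differences from -0.10 to 0.04. Adgre1, which encodes the F4/80 antigen, gave 0.16 (95% interval -0.08 to 0.39), and Vsig4, a receptor for complement-coated particles, gave 0.12 (95% interval -0.01 to 0.26). The intervals leave room for changes of up to 0.39 in this group, so equality of the genotypes was not shown.

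The scavenger and pattern recognition receptors went both ways. Among 7 measured receptor genes, 2 rose and 2 fell (28.6% each), where 6.83% of all genes rose and 9.05% fell, and 3 did not pass. This group was also made for the description, and it holds every called macrophage member, so its share is not a separate result. Over all 19 measured macrophage genes, 2 rose and 2 fell (10.5% each). Marco, a collagenous scavenger receptor that binds bacteria, was at 5.87, 6.19 and 5.65 in transgenic cells, against 5.38, 5.33 and 4.95 in wild-type cells. Every transgenic array was above every wild-type array, with the wild-type values under the array median. The 1.61-fold rise (0.69, SE 0.15, adjusted p = 0.0209 by limma) rested on arrays with a wide spread of 0.27 and 0.23 (SD in transgenic and wild-type cells, n = 3 each). Leaving out an array lost the call in 3 cases. The difference was 0.70 with adjusted p = 0.0512 when transgenic replicate 1 was left out, 0.74 with adjusted p = 0.0511 when wild-type replicate 2 was, and 0.55 with adjusted p = 0.0600 when wild-type replicate 3 was.

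Mrc1, the mannose receptor, which sinusoidal endothelial cells also express, was at 6.20, 6.36 and 6.38 in transgenic cells, against 5.95, 5.78 and 5.82 in wild-type cells. All 6 values were above the array median and the genotypes did not overlap. The rise of 0.46 (SE 0.07, adjusted p = 0.00462 by limma) was 1.38-fold. Of the sinusoidal endothelial markers 2 of 12 measured rose (16.7%, where 6.83% of all genes did) and 0 fell, Clec4g by 0.50 (adjusted p = 0.00633 by limma) and Kdr by 0.41 (adjusted p = 0.0196). The endothelial list's mean log2 level ran from 5.58 to 5.70 on the transgenic arrays and from 5.43 to 5.57 on the wild-type arrays. The part of endothelial RNA in the Mrc1 difference was not tested.

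Cd14 and Cd163 were lower. Cd14, which presents bacterial lipopolysaccharide to the TLR4 complex, was at 8.71, 8.81 and 8.78 in transgenic cells, against 9.25, 9.17 and 9.22 in wild-type cells. The groups were apart by several times the spread within them, and the difference was -0.45 (SE 0.06, adjusted p = 0.00149 by limma), a 1.36-fold decrease. Cd14 is made by macrophages and also by hepatocytes, and these arrays do not separate the sources. Cd163, which takes up haemoglobin bound to haptoglobin, was at 3.84, 3.84 and 3.99 in transgenic cells, against 4.22, 4.13 and 4.25 in wild-type cells. Its values were far under the array median, and the decrease of 0.31 (adjusted p = 0.0174 by limma) did not pass when transgenic replicate 1, transgenic replicate 2 or wild-type replicate 3 was left out (-0.28 each time, with adjusted p = 0.0672, 0.0618 and 0.0639).

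The other scavenger and pattern receptors did not pass. Msr1, the class A scavenger receptor, gave 0.03 at its brightest probe set and 0.03 to 0.26 over its 4 probe sets, none of them called. Cd68, a lysosomal glycoprotein of phagocytes, gave 0.22 (adjusted p = 0.117 by limma), with the transgenic arrays at 7.16 to 7.23 above the wild-type arrays at 6.81 to 7.08. Clec4n, which encodes the fungal receptor dectin-2, was under the array median at 3.63 in transgenic and 3.60 in wild-type cells.

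Fc receptors and their signalling adaptors gave 0 of 4 called, where 15.9% of all genes were. Fcer1g, the common gamma chain through which Fc and other receptors signal, came nearest, at 6.69, 6.45 and 6.75 in transgenic cells, against 6.21, 6.10 and 6.45 in wild-type cells. The difference was 0.38 (SE 0.11, adjusted p = 0.0531 by limma), with the lowest transgenic and the highest wild-type array almost level. It passed under 8 of 15 alternatives, among them those that left out transgenic replicate 2 (0.47, adjusted p = 0.0344) or wild-type replicate 3 (0.47, adjusted p = 0.0310). Tyrobp, the DAP12 adaptor, gave 0.18, and the IgG receptor genes Fcgr1 and Fcgr3 gave 0.10 and -0.01, all at levels under the array median.

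Among the other macrophage genes, Slc15a3, a lysosomal transporter of histidine and peptides, was at 6.02, 5.61 and 5.98 in transgenic cells, against 5.56, 5.17 and 5.49 in wild-type cells. Its difference of 0.46 (SE 0.14, adjusted p = 0.0549 by limma) passed without transgenic replicate 2 (0.59, adjusted p = 0.0211) and under 7 of 15 alternatives in all. Lyz2, the macrophage lysozyme gene, gave 0.10 (95% interval -0.02 to 0.22), and Aif1, a calcium-binding protein of macrophages, gave 0.12 at a level under the array median.

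Of the general leukocyte genes 1 of 6 changed (16.7%, where 15.9% of all genes did). Ptprc, the CD45 phosphatase carried by nearly all leukocytes, was at 5.28, 5.37 and 5.49 in transgenic cells, against 4.79, 4.69 and 4.83 in wild-type cells. All values were under the array median, but the genotypes were well separated, with a difference of 0.61 (SE 0.07, adjusted p = 0.00114 by limma), or 1.53-fold. Spi1 was at 5.26, 5.32 and 5.22 in transgenic cells, against 5.22, 5.22 and 5.18 in wild-type cells, a difference of 0.06 (95% interval -0.07 to 0.18). Laptm5, a lysosomal membrane protein of blood cells, was at 5.57, 5.40 and 5.63 in transgenic cells, against 5.31, 5.40 and 5.58 in wild-type cells, and all 3 of its probe sets missed the threshold. The integrin genes Itgam and Itgax gave 0.02 and 0.00, and Coro1a, an actin regulator, gave -0.03. Apart from Ptprc, then, none of these genes passed.

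The promoters of the 3 members that rose hold a PU box core, as do those of most members with a known start site. RefSeq start sites (build GRCm38.p6) were available for 30 of the 43 members, in windows of 300 bases, from 250 before to 50 after the start. The PU box core GAGGAA, searched on both strands, was present in at least 1 window of 19 of these 30 members (63.3%), against 31.3% of all 27025 genes in the table. It was in 8 of 12 measured macrophage genes, 3 of 5 general leukocyte genes, 3 of 4 neutrophil genes, 3 of 6 T and NK genes and 1 of 1 B cell gene, and also in Ly6g. It was in the windows of Marco, Mrc1 and Ptprc, which rose, and not in that of Cd163, which fell. Promoters of the other members that fell, Cd14, Ighm and Ly6d, were not analysed here, so only 1 of the 4 fallen members is represented. The core was also in those of Cd68, Cd5l, Vsig4 and others that did not pass. Only this motif was searched, and its matches do not overlap each other. The 250 bases before each start are given for these 4 changed genes, to show where the matches lie in the risen genes beside the 1 fallen gene with a window. Capitals mark GAGGAA or its complement TTCCTC, and for Ptprc the more upstream of its 2 start sites is shown.
Marco, chr1:120505025-120505274, minus strand: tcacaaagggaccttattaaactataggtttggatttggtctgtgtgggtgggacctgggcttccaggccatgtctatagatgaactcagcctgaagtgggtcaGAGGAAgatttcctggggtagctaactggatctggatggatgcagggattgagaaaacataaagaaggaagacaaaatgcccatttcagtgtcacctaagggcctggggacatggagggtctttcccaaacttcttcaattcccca
Mrc1, chr2:14229164-14229413, plus strand: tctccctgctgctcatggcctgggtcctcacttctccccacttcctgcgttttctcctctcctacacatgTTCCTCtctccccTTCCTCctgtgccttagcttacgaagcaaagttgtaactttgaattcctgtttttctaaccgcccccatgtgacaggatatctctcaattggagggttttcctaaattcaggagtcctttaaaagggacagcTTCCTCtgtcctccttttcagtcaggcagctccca
Ptprc, chr1:138175306-138175555, minus strand: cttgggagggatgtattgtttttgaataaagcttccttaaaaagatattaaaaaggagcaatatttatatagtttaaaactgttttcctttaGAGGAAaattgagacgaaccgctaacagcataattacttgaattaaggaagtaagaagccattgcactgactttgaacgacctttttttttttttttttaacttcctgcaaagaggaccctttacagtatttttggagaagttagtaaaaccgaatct
Cd163, chr6:124304401-124304650, plus strand: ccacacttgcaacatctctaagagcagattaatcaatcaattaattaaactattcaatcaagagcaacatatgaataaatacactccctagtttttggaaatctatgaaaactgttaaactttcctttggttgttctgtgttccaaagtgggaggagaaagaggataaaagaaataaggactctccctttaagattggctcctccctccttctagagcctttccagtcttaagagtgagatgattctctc

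Mrc1 held 3 matches, starting 180, 167 and 35 bases before the start, and Marco and Ptprc held 1 each, 146 and 158 bases before it. The 250 bases before the other start site of Ptprc held 0 matches. A match of these letters is a description of the sequence and not a measured binding site.

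Neutrophil markers showed no called difference: 0 of 4 passed by limma, where 15.9% of all genes did, and 0 had an unadjusted p under 0.05. Elane, neutrophil elastase, was at 4.21, 4.01 and 4.21 in transgenic cells, against 4.25, 4.16 and 4.14 in wild-type cells. S100a9, a calprotectin subunit, was at 3.66, 3.80 and 3.89 in transgenic cells, against 4.09, 3.86 and 3.90 in wild-type cells. Mpo, myeloperoxidase, was at 3.77, 3.75 and 3.88 in transgenic cells, against 3.77, 3.53 and 3.70 in wild-type cells. The genotypes overlapped for all 3, and S100a8, the other calprotectin subunit, gave 0.24 (95% interval -0.02 to 0.50). All these values lie under the array median, so the arrays could have missed changes in rare neutrophils.

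T and NK cell markers likewise gave 0 of 7 called by limma, where 15.9% of all genes were, with 1 at an unadjusted p under 0.05. Cd4, the co-receptor of helper T cells, was at 6.19, 6.19 and 6.20 in transgenic cells, against 6.22, 6.01 and 6.18 in wild-type cells. Cd3e, a T cell receptor subunit, was at 5.92, 5.90 and 5.96 in transgenic cells, against 5.998, 5.90 and 5.91 in wild-type cells. Both lay above the array median and overlapped between the genotypes, while Cd3g, a subunit of the same receptor, lay under the median at 3.39 in transgenic and 3.21 in wild-type cells. Cd8a, the co-receptor of cytotoxic T cells, was at 4.24, 4.26 and 4.26 in transgenic cells, against 4.25, 4.26 and 4.25 in wild-type cells. Its dimmer probe set, at 3.46 in transgenic and 3.21 in wild-type cells, gave 0.26 without overlap of the genotypes. That difference did not pass (adjusted p = 0.0759 by limma over every probe set). Gzmb, a cytotoxic granule protease, gave 0.21 (adjusted p = 0.0661 by limma) at levels of 3.65 in transgenic and 3.44 in wild-type cells. It passed without wild-type replicate 3 (0.27, adjusted p = 0.0348). Gzma and Nkg7, also of cytotoxic granules, gave -0.12 and -0.08.

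B cell markers gave 2 fallen of 5, where 9.05% of all genes fell, and 0 risen. Ighm, at its brightest probe set, was at 6.73, 6.90 and 6.73 in transgenic cells, against 8.70, 8.52 and 8.55 in wild-type cells. The gap between the groups was many times the spread within them, and the difference was -1.80 (SE 0.08, adjusted p = 6.01e-06 by limma), a 3.49-fold decrease. Ly6d, a surface protein of early B lineage cells that keratinocytes also make, was at 6.43, 6.16 and 6.22 in transgenic cells, against 6.85, 6.77 and 6.82 in wild-type cells. It fell by 0.54 (SE 0.08, adjusted p = 0.00272 by limma), 1.46-fold. The B cell receptor subunit genes Cd79a and Cd79b did not pass. Cd79a was at 5.29, 5.20 and 5.37 in transgenic cells, against 5.46, 5.49 and 5.33 in wild-type cells, a difference of -0.14 (adjusted p = 0.233 by limma). Cd79b gave 0.23 (adjusted p = 0.0737), and passed as higher without transgenic replicate 2 (0.30, adjusted p = 0.0371). Ms4a1, which encodes CD20, was under the array median at 3.71 in transgenic and 3.54 in wild-type cells.

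The Ighm decrease was carried by 2 of the gene's 11 probe sets when every probe set was tested. Beside 1427351_s_at, the brightest, 1427329_a_at was at 4.79, 4.67 and 4.67 in transgenic cells, against 6.62, 6.90 and 6.92 in wild-type cells, a difference of -2.10 (SE 0.09, adjusted p = 6.40e-06 by limma). Its transgenic values were under the array median and its wild-type values above it. Probe set 1427870_x_at went the other way, at 6.06, 5.98 and 6.13 in transgenic cells, against 5.80, 5.72 and 5.73 in wild-type cells (0.31, adjusted p = 0.0169). The other 8 gave differences from -0.03 to 0.14, none with an adjusted p below 0.426, at levels between 3.30 and 5.73. The mean over the 11 probe sets gave -0.30 (adjusted p = 0.00509 by limma). Immunoglobulin transcripts differ in their variable segments and heavy chain classes, and the platform annotation lists no accession for either of the 2 probe sets that fell.

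**Figure D3:**
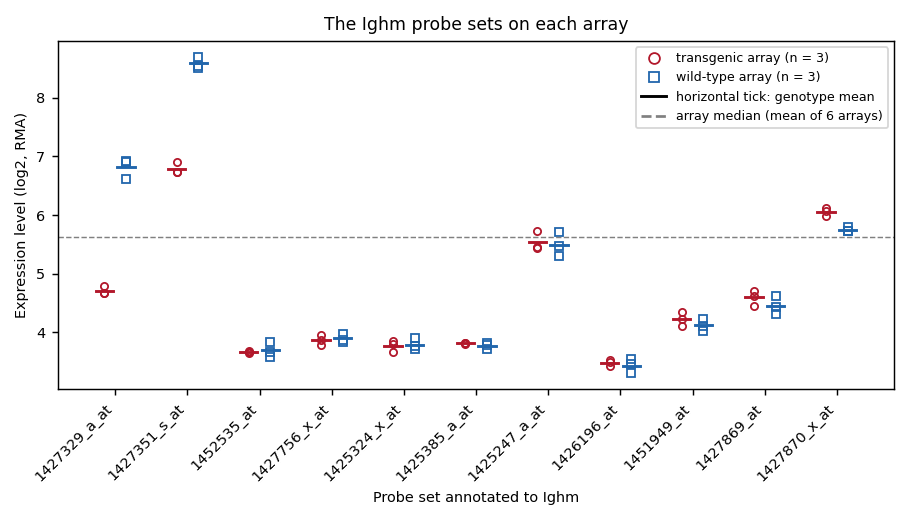
Log2 level (y axis) of the 11 probe sets annotated to Ighm (x axis, ordered by difference) on each transgenic array (circles) and wild-type array (squares), with ticks at the means and the array median as a dashed line. Probe sets 1427329_a_at and 1427351_s_at differ by -2.10 and -1.80, and 8 others gave differences from -0.03 to 0.14.

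Of the other members 8 also had several probe sets, and 32 had 1. None of these 8 genes (Cd4, Cd8a, Clec4n, Coro1a, Csf1r, Laptm5, Ms4a1 and Msr1) had a probe set past the threshold (0 by limma over every probe set). Among all 22626 probe sets without the controls, 12% were called.

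The classes can be set side by side by their mean log2 level on each array. The 19 macrophage genes averaged 6.08, 6.12 and 6.08 on the transgenic arrays, against 5.999, 5.93 and 5.99 on the wild-type arrays, a difference of 0.12. The 6 general leukocyte genes averaged 4.55, 4.61 and 4.64 on the transgenic arrays, against 4.46, 4.45 and 4.51 on the wild-type arrays, a difference of 0.13. In both classes every transgenic array was above every wild-type array on this scale, which weights dim and bright genes alike. The general leukocyte mean holds Ptprc, the largest difference of that class at 0.61. For every other gene of that class the arrays overlapped, with differences from -0.03 (Coro1a) to 0.11 (Laptm5). The class separation therefore cannot be read apart from Ptprc, and the mean and sum without it were not tested. Summed as linear signal, the macrophage genes overlapped, at 1969.5 to 2065.7 on the transgenic arrays and 1966.3 to 2108.4 on the wild-type arrays. That sum includes Cd14, the brightest macrophage member, with a difference of -0.45. The general leukocyte sums, which also hold Ptprc, did not overlap, at 165.1 to 175.8 on the transgenic arrays and 148.1 to 155.3 on the wild-type arrays. Neutrophil genes differed by 0.04 and T and NK genes by 0.03, with overlapping arrays. The 5 B cell genes averaged 5.48, 5.39 and 5.51 on the transgenic arrays, against 5.93, 5.89 and 5.82 on the wild-type arrays, a difference of -0.42 that holds Ighm. By median difference the classes stood at 0.10 for macrophage, 0.04 for general leukocyte, 0.05 for neutrophil, 0.00 for T and NK and -0.14 for B cell genes. Differences between classes were not tested.

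**Figure D4:**
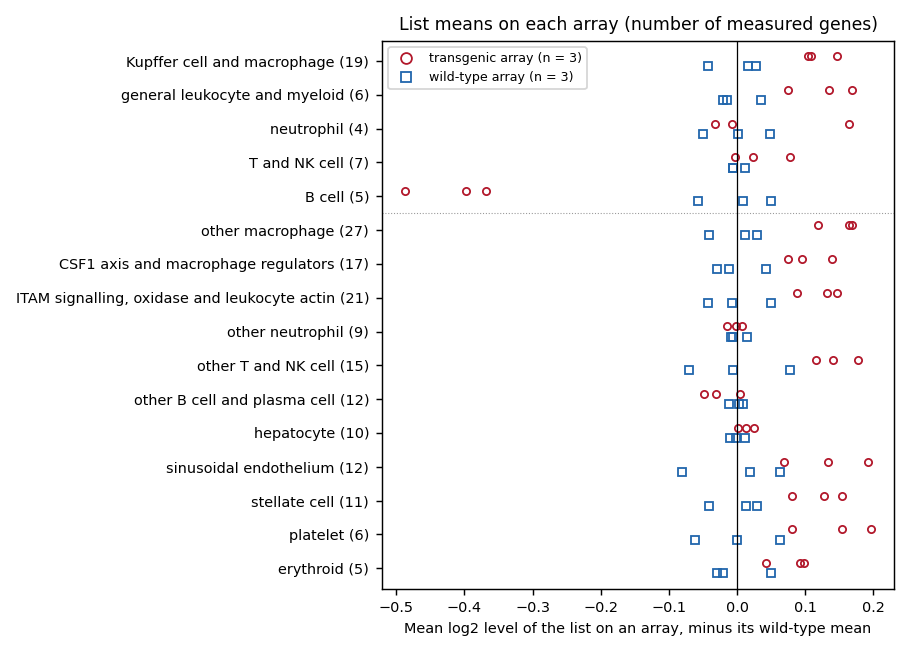
Mean log2 level of each gene list on each array, minus the list's wild-type mean (x axis), for transgenic arrays (circles) and wild-type arrays (squares). The 5 rows above the dotted line are the marker classes described here, and the rows under it are companion lists and lists of other cell types. Macrophage genes sit higher on the transgenic arrays by 0.12, endothelial genes by 0.13 and stellate genes by 0.12, while hepatocyte genes differ by 0.01.

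Further genes associated with macrophages and myeloid cells were counted in the same way. Their lists were chosen with earlier results of these data known, so the shares describe the lists and are not independent support. In 3 companion lists (other macrophage genes, the CSF1 axis with macrophage regulators, and ITAM signalling with oxidase and actin genes), 14 of 65 measured genes rose (21.5%) and 0 fell, where 6.83% of all genes rose and 9.05% fell. Of 27 other macrophage genes 6 rose. Ctsc, a lysosomal protease that many cell types make, rose by 1.04, the adhesion receptor gene Cd84 by 0.38, the T cell co-stimulator gene Cd86 by 0.45 and Hmox1, which breaks down haem in hepatocytes as well as macrophages, by 0.28. The level of Hmox1, 11.14 in transgenic and 10.86 in wild-type cells, was above that of each of the 19 macrophage members. The remaining 2, outside the rule for named genes, were the complement gene C1qc at 0.35 and the sialic acid receptor gene Siglec1 at 0.23. Cd84 and Cd86 were at levels under the array median.

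Among 17 macrophage regulators and CSF1 axis genes 4 rose. Spic, a PU.1-related factor of macrophages that recycle iron, was at 5.73 ± 0.24 in transgenic and 5.13 ± 0.04 in wild-type cells (SD, n = 3 each), a rise of 0.60 (adjusted p = 0.00944 by limma). Id3, a factor of Kupffer cell identity that other cells express too, rose by 0.32, and the myeloid factor gene Irf8 by 0.33. Cebpb, a transcription factor that hepatocytes also make, rose by 0.24, at 12.44 in transgenic and 12.20 in wild-type cells. In the ITAM, oxidase and actin list 4 of 21 rose. These were the kinase gene Syk (0.39), the tetraspanin gene Cd53 (0.43), the leukocyte integrin beta chain gene Itgb2 (0.40) and the T cell and myeloid adaptor gene Fyb (0.30), all at levels under or near the array median.

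Among the companion lists of the other leukocytes only the T and NK list had called genes, where 15.9% of all genes were called. Of 9 further neutrophil genes 0 passed by limma, with 0 at an unadjusted p under 0.05, among them Ctsg at -0.21, Cxcr2 at 0.19, Prtn3 at 0.09 and Ltf at -0.12. Of 15 further T and NK genes 2 rose (13.3%, where 6.83% of all genes did) and 0 fell. These were the chemokine gene Ccl5, by 0.99, and the NK receptor gene Klrk1, by 0.37. The level of Ccl5, 8.23 in transgenic and 7.24 in wild-type cells, was above that of each of the 7 T and NK members. Which cells gave the Ccl5 signal was not tested. Klrk1 was far under the array median at 3.73 in transgenic and 3.36 in wild-type cells. Cd3d (0.18) and Klrd1 (0.13) did not pass. Of 12 further B cell and plasma cell genes 0 passed by limma, with 2 at an unadjusted p under 0.05. In that list Jchain, which joins IgM and IgA units, gave -0.15, Vpreb1 -0.22, Blk 0.17 and Igll1 0.14, and 11 of the 12 lay under the array median on every array.

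The stellate cell and platelet lists each had 1 called gene, which was higher in transgenic cells. In the stellate cell list 1 of 11 measured genes rose (9.09%), the matrix gene Lum by 0.20, where 6.83% of all genes rose, and 0 fell. The mean log2 level of that list was higher in transgenic cells by 0.12. It averaged 5.54 to 5.62 on the transgenic arrays and 5.42 to 5.49 on the wild-type arrays. Its next genes by p, Reln (0.20), Col1a2 (0.32) and Acta2 (0.15), did not pass. In the platelet list 1 of 6 rose (16.7%), the platelet glycoprotein gene Gp5 by 0.29, while Ppbp (0.19), Itga2b (0.12) and Gp9 (0.11) did not pass. Its mean level differed by 0.14 and averaged 4.83 to 4.95 on the transgenic arrays and 4.69 to 4.81 on the wild-type arrays. The mean of the macrophage list differed by 0.12, an amount like that of these lists, and the part that the carry-over of non-hepatocyte cells has in the marker differences was not tested.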

How the data were processed

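The authors deposited 1 table of log2 expression values, which the submitters' processing notes credit to RMA and Affymetrix Expression Console, with no version. RMA corrects background, gives all arrays the same distribution and combines the probes of a set, so a change common to most genes is removed. Among the 22690 probe sets deposited, 64 were controls, 20380 had 1 gene symbol in the platform annotation, 691 several and 1555 none. Gene identifiers of 12369 of the 12393 genes matched the GRCm38.p6 table. Arrays have no read depth, and their number limits the precision.

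Each gene's brightest probe set was tested with limma 3.58.1 in R 4.3.3 (lmFit and eBayes, two-sided, Benjamini-Hochberg over all genes). The procedure was tested on simulated data for all 12393 genes: 69% of 200 genes shifted by 0.5 and 96% of 200 shifted by 1 were recovered, with 6 and 10 false calls. The shifted genes were drawn from all genes, and 1967 genes were called in the data. The recovery therefore need not hold for the members, of which 24 were dim. Sequences were taken from RefSeq with Python 3.11.15 and pandas 2.3.3, and figures drawn with matplotlib 3.10.9.

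The members and lists were chosen with earlier results of these data known, so a list's share beside that of all genes is a description only. Values on every array are given for members past the threshold, for members whose probe sets disagree and for the 3 brightest of each class. Clec4f, Fcer1g and Slc15a3 were added after their values were seen. Up to 4 genes with the smallest p are named per companion list. No set test was run. Alternatives were averaging the probe sets of a gene, removal of probe sets that match several transcripts, a filter on dim genes, quantile or median scaling, a variance trend, array weights, a replicate block, no moderation, a stricter threshold and leaving out each array. No batch label was used here.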

Additional observations from a re-analysis of the deposited data

How the results depend on the processing

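Of 41 members, 5 of the 7 changed ones (Mrc1, Ptprc, Cd14, Ighm and Ly6d) passed at the 0.05 threshold under every alternative that tested them, 30 passed under none, and 0 reversed. Marco and Cd163 also missed the threshold without moderation of the variance (adjusted p = 0.138 and 0.0625). The members higher numbered 3 in the reported analysis. They numbered 5 when a gene's probe sets were averaged, with each array centred on its median and with a variance trend, each time through Fcer1g and Slc15a3. The members lower numbered 4. At a threshold of 0.01 there were 2 higher and 3 lower. Leaving out 1 array gave 2 to 6 members higher and 3 to 4 lower. The 6 came without transgenic replicate 2, where Fcer1g, Slc15a3 and Cd79b passed as well. Over all genes 1967 were called, against 1271 without moderation and 1267 to 1700 with 1 array left out, the lowest without transgenic replicate 1. More were called with the variance trend (2616), with the filter on dim genes (2357) and with array weights (2138).

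The replicate numbers were used as a block only as an alternative. Deviations of same-numbered arrays correlated at -0.01, -0.01 and 0.10, the last being the highest of all pairs across genotypes. Not every array correlated best with its own number. With 3 arrays per genotype these values cannot decide whether same-numbered arrays were paired. With the block 5 members were higher, Fcer1g and Slc15a3 among them, 4 were lower and 1505 genes were called in all.

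Dim signal limits what these arrays can show for 24 members, of which 6 are macrophage, 6 general leukocyte, 4 neutrophil, 5 T and NK and 3 B cell genes.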

Other observations

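Red cell genes were measured as a further sign of blood cells and went both ways. Of 5 measured genes 1 rose and 1 fell (40% called, where 15.9% of all genes were). Car1, an erythroid carbonic anhydrase that other tissues share, rose by 0.68 (adjusted p = 0.000646 by limma), and Klf1, an erythroid transcription factor, fell by 0.43 (adjusted p = 0.00201), at 5.75 ± 0.03 in transgenic and 6.19 ± 0.07 in wild-type cells (SD, n = 3 each). The other 3 measured genes of that list did not pass, among them Epb42 at 0.14 and Alas2 at -0.11.

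The 7 changed members were also set beside their chromosomal neighbours, the 5 nearest measured genes on each side in GRCm38.p6 gene order. Of 70 neighbours 12 were called, 4 higher and 8 lower (17.1%), where 15.9% of all genes were. Next to Ighm on chromosome 12, the zinc finger gene Zfp386 was at 4.61 in transgenic and 5.54 in wild-type cells, a difference of -0.92 (adjusted p = 0.000146 by limma), and Crip1 gave -0.30 (adjusted p = 0.0433). The immunoglobulin genes Igha and Ighg3 in that stretch did not pass. Beside Cd14 3 of 10 neighbours were higher and 1 was lower, and beside Cd163 3 of 10 were lower. Beside Marco 1 was higher and 1 lower, and beside Mrc1 1 was lower. Beside Ly6d, whose neighbours include Ly6i and Ly6f of the same family, 0 of 10 were called by limma, and beside Ptprc 0 of 10 were. These neighbours were examined after the values of the members were seen.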
